A study of Mus musculus with 2 samples.

Results

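Hox genes were examined for how their expression in mouse heart compared with mouse embryonic fibroblasts (MEF), which are connective-tissue cells grown from embryos, cluster by cluster and position by position. The members were all genes whose platform symbol is Hox followed by the cluster letter a, b, c or d and a number. That gave 37 genes, measured by 49 probes, out of 19532 genes on the array. The genes numbered 10 in cluster A, 10 in cluster B, 8 in cluster C and 9 in cluster D.

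The data came from 2 two-colour Agilent arrays. Each array paired the RNA of one heart, labelled with Cy3, against MEF RNA labelled with Cy5; array 1 held heart-1 and array 2 held heart-2. Per the labels the hearts were untreated and taken without culture, and MEF were grown in DMEM with fetal bovine serum. The strain and age of the mice, the body region and passage of the MEF, and whether the hearts came from separate animals or the MEF RNA from one preparation are not stated by the labels, so p-values measure only the spread between these 2 arrays. The dyes were not exchanged, so a probe's bias for one dye stays in its ratio. All values are log2 ratios of heart over MEF, where -1 means 2-fold lower in heart. The direction is likely rather than stated, and was read from cardiac sarcomere genes, whose median ratio was 6.29 on array 1 and 6.30 on array 2.

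Hox genes encode homeodomain transcription factors that give cells their position along the head-to-tail axis and, for the high-numbered genes, along the limbs and in the urogenital tract. In mammals they lie in 4 clusters, A to D, that arose by duplication. Genes at the same place in different clusters carry the same paralog number, from 1 at the end used in the anterior body to 13 at the end used in the most posterior and distal parts. Fibroblasts are known to keep a Hox pattern of the body site they came from when they are grown in culture. In the embryonic heart, low-numbered genes such as Hoxb1 mark progenitor cells of the second heart field.

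The labelled tissues were checked with marker lists. A gene is called higher or lower where limma's adjusted p over all genes was under 0.05, which held for 73.1% of all genes, 39.3% lower and 33.8% higher. All 20 measured sarcomere genes were higher in heart, which set the direction and is no evidence for it. Of 17 markers of cultured fibroblasts, 16 were lower in heart and Fap was not called. All 8 endothelial markers were higher in heart, with a median of 3.50. Of 6 blood and macrophage markers 3 were higher, among them the red cell genes Alas2 (6.58) and Hba-a1 (6.27), and 2 were lower. Of 8 skeletal muscle markers 4 were lower and 2 higher, one of which was Myh4 at 5.33, and of 6 neural markers 3 were lower and 1 higher. The share called in each of these muscle and neural lists was near that of all genes. These differences in cell make-up ran alongside the Hox ratios, and their part in them was not tested. In such whole-sample RNA, fewer cells of a type and less RNA per cell cannot be told apart.

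Most Hox genes were lower in heart than in MEF, and several were among the lowest genes of the array. Tested against no difference with limma (moderated test on all genes, two-sided, Benjamini-Hochberg adjusted p under 0.05), 33 of the 37 genes were lower in heart, 1 was higher and 3 were not called. Over all genes, the same moderated test called 73.1%, 39.3% lower and 33.8% higher. With each gene's own variance only, 15 Hox genes were called lower and 1 higher, and the share of all genes under that setting is not given here. The median Hox ratio was -2.15, with -2.31 on array 1 and -2.02 on array 2, against -0.04 over all genes. At least 2-fold lower on both arrays were 29 Hox genes, compared with 18.5% of all genes. At least 16-fold lower on both were 11 Hox genes, compared with 1.21% of all genes. When the null was a 2-fold difference (limma's treat), 25 Hox genes were called lower and 0 higher, beside 14.6% of all genes called lower and 15.1% higher. The higher gene, Hoxb1, had a 1.55-fold difference.

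**Figure D1:**
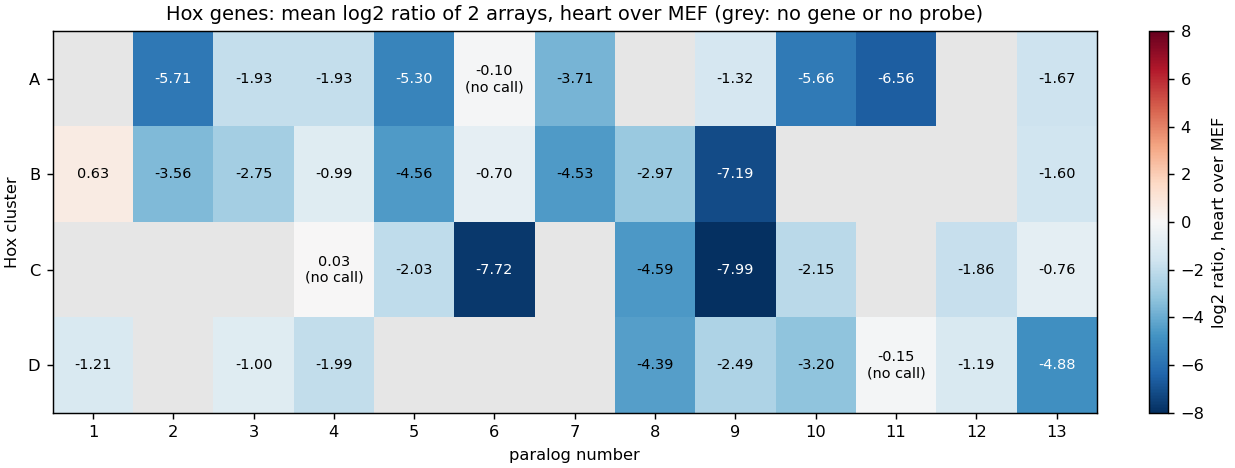
Mean log2 ratio of heart over MEF for each measured Hox gene, with clusters A to D as rows and paralog numbers 1 to 13 as columns (n = 2 arrays; grey cells have no gene or no probe). Low ratios are scattered over all 4 clusters and most columns, the lowest being Hoxc9 at -7.99, Hoxc6 at -7.72 and Hoxb9 at -7.19.

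In cluster A, 9 of 10 genes were lower in heart, and the ratios changed abruptly between neighbours. Hoxa2, which patterns the hindbrain and the second pharyngeal arch, stood at -5.70 on array 1 and -5.71 on array 2 (52.2-fold lower in heart, limma adjusted p = 0.00136). Hoxa3, needed for thymus and parathyroid, and Hoxa4 followed at means of -1.93 ± 0.04 and -1.93 ± 0.08 (SD, n = 2). Both average probes that differ: those of Hoxa3 had means of -2.81, -2.02 and -0.98, those of Hoxa4 -2.80 and -1.06. The Hoxa4 probes moved in opposite directions between arrays, with SDs of 0.37 and 0.52, so the SD of the gene mean understates their spread. Hoxa5, which acts in lung and cervicothoracic skeleton, was at -5.21 and -5.39 on arrays 1 and 2. Its neighbour Hoxa6 was at -0.07 and -0.12 and was not called (limma adjusted p = 0.138). Hoxa7 was again low at -3.70 and -3.72. The arrays did not overlap between these neighbours: both Hoxa6 values lay above both values of Hoxa5 and of Hoxa7. The step from Hoxa5 to Hoxa6 was 5.14 and 5.28 on the 2 arrays. Hoxa5, Hoxa6 and Hoxa7 each had 1 probe, so differences between genes and between probes cannot be told apart here.

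The upstream sequences of these 3 adjacent genes are shown because the ratio changes sharply on both sides of Hoxa6, and that of Hoxb1 because it was the one Hox gene called higher in heart. Each is the 250 bases before the RefSeq start, 5′ to 3′ (GRCm38.p6). Capitals mark matches on either strand to TGATNNAT, the composite site of PBX and HOX proteins, TATAAA, the TATA box, CCAAT, the site of NF-Y, and GGGCGG, the GC box, and matches that share bases run together.
Hoxa5 (chr6:52204588-52204837, minus strand): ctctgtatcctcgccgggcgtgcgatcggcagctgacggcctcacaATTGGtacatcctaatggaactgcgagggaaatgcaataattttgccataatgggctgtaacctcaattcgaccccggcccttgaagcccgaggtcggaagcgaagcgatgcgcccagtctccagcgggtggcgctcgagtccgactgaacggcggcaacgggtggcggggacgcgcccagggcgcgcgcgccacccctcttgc
Hoxa6 (chr6:52208673-52208922, minus strand): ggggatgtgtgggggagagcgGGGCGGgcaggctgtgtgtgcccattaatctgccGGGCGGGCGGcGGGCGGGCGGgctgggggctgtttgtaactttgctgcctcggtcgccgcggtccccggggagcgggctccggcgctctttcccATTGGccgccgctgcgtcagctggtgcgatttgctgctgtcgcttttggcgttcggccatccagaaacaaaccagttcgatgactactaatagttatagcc
Hoxa7 (chr6:52218574-52218823, minus strand): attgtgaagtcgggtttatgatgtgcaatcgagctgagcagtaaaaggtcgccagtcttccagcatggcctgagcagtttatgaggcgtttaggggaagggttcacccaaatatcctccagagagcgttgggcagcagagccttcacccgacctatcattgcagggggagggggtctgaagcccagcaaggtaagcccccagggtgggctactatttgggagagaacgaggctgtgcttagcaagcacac
Hoxb1 (chr11:96365508-96365757, plus strand): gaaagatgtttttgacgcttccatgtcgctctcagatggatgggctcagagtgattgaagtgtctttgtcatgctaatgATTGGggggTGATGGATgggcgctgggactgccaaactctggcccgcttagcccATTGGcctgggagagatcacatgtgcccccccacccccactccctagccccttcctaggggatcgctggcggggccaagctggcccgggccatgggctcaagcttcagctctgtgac

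The Hoxa6 sequence held 5 matches to GGGCGG and 1 to CCAAT, Hoxa5 held 1 to CCAAT, and Hoxa7 held none of the 4 motifs. The CpG count was 28 for Hoxa5, 24 for Hoxa6, 7 for Hoxa7 and 7 for Hoxb1, with a median of 6 over all 32851 promoter windows. The Hoxb1 sequence held 1 match to TGATNNAT and 2 to CCAAT, and Hoxb1 is known to sustain its own hindbrain expression through PBX and HOX sites in this region. Over the 24 windows of the 22 Hox genes with an entry, 4 held TGATNNAT (16.7%, against 7.68% of all windows) and 4 held TATAAA (16.7%, against 12.4%). CCAAT was present in 14 (58.3%, against 33.8%) and GGGCGG in 10 (41.7%, against 32.7%). These matches describe letters in a window.

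The high-numbered end of cluster A held the lowest ratio of the cluster. Hoxa9, which is active in blood progenitors and posterior mesoderm, was at -1.34 and -1.30, a 2.50-fold difference. Hoxa10 and Hoxa11, both needed for the uterus and the limb, lay far below it at -5.66 ± 0.19 and -6.56 ± 0.13 (SD, n = 2). Hoxa11 was at -6.66 on array 1 and -6.47 on array 2, and 27 genes of all 19532 had a lower mean. Hoxa13, which patterns digits and the genital tract, was at -1.90 and -1.44. It passed the test against no difference (limma adjusted p = 0.0103) but not the test against a 2-fold change (treat adjusted p = 0.0683).

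Cluster B held both the one higher gene and one of the lowest. Hoxb1 was at 0.62 on array 1 and 0.64 on array 2 (mean 0.63 ± 0.02, limma adjusted p = 0.00446), from 1 probe. Next to it Hoxb2, a hindbrain gene, was at -3.56 on both arrays, so the step from Hoxb1 to Hoxb2 was -4.18 and -4.20. Hoxb3 averaged -2.75 ± 0.32 and Hoxb4, a regulator of blood stem cells, -0.99 ± 0.07. Hoxb5 was at -4.42 and -4.69 and Hoxb7 at -4.29 and -4.77, whereas Hoxb6 between them was at -0.67 and -0.72. In cluster A paralog 6 likewise stood above paralogs 5 and 7, but the Hoxb6 mean combines 2 probes of opposite sign. Hoxb8 averaged -2.97 ± 0.14. Hoxb9 reached -7.34 and -7.03, 146-fold lower in heart, and Hoxb13, known from prostate and tail bud, -1.83 and -1.38.

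Cluster C held the 2 lowest Hox ratios. Hoxc9, a thoracic gene of the spinal cord and vertebrae, was at -7.90 on array 1 and -8.07 on array 2, 254-fold lower in heart (limma adjusted p = 0.00136), and 5 genes of the whole array had a lower mean. Hoxc6 was at -7.23 and -8.20, 210-fold lower (limma adjusted p = 0.00299). Hoxc8, which lies between them, was at -4.57 and -4.60. Away from these 3 genes the ratios approached 0 on either side: Hoxc5 averaged -2.03 ± 0.73 and Hoxc4 was at 0.12 and -0.06, with opposite signs on the arrays and no call (limma adjusted p = 0.738). On the other side Hoxc10 averaged -2.15 ± 0.18, Hoxc12 -1.86 ± 0.02 and Hoxc13, a hair and nail gene, -0.76 ± 0.31. In this cluster the gene means were lowest at Hoxc6, Hoxc8 and Hoxc9 and were -2.15 or more at all other measured genes. The Hoxc10 mean combines probes with means of -3.75 and -0.54, and Hoxc11 was not measured, so the edge on that side depends on the probe.

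Cluster D had a median of -1.99, compared with -2.82 in cluster A, -2.86 in cluster B and -2.09 in cluster C. The order of D and C turned between the arrays, with -2.004 in D and -2.41 in C on array 1 and -1.98 in D and -1.93 in C on array 2. The ranges overlapped widely, from -4.88 to -0.15 in D, -6.56 to -0.10 in A, -7.19 to 0.63 in B and -7.99 to 0.03 in C, and the difference between clusters was not tested because their genes are not replicates. Hoxd13, whose loss or mutation malforms the digits, was the lowest D gene, at -4.78 and -4.99 on arrays 1 and 2 (29.5-fold lower in heart). Hoxd12 next to it was at -1.29 and -1.10, and Hoxd11 at -0.11 and -0.19 was not called (limma adjusted p = 0.0814). Hoxd10 was at -3.09 and -3.31, Hoxd9 averaged -2.49 ± 0.26 and Hoxd8 -4.39 ± 1.02. The low-numbered genes Hoxd4 (-1.99 ± 0.02), Hoxd3 (-0.998 ± 0.13) and Hoxd1 (-1.21 ± 0.01) lay within about 1 log2 unit of each other.

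The ratio did not follow paralog number in a steady order. Spearman's rho between mean ratio and paralog number was -0.11 over the 37 genes, and 0.05, -0.37, 0.02 and -0.23 within clusters A, B, C and D (10, 10, 8 and 9 genes, all from the same arrays, given as a description). Genes of paralogs 1 to 3 had a median of -1.93 (7 genes), paralogs 4 to 8 of -2.97 (15 genes) and paralogs 9 to 13 of -2.15 (15 genes). By single paralog number, the lowest medians were at paralog 9 (-4.84, 4 genes), paralog 2 (-4.63, 2 genes) and paralog 5 (-4.56, 3 genes). The medians nearest 0 were at paralog 1 (-0.29, 2 genes) and paralog 6 (-0.70, 3 genes), where the second is the value of Hoxb6, whose probes had means of -2.76 and 1.37.

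Genes of the same paralog number often differed strongly between clusters. Paralog 9, the only number besides 4 and 13 measured in all 4 clusters, had ratios of -1.32 in A, -7.19 in B, -7.99 in C and -2.49 in D. The range was 6.67, while the SD between arrays of each of these genes was at most 0.26. That SD does not include differences between probes, and the probes of Hoxd9 had means of -3.23 and -1.75. The Hoxd9 probes moved in opposite directions between arrays, with SDs of 0.56 and 0.045, so part of the change cancels in the gene mean. The Hoxb9 probes had SDs of 0.0066 and 0.44. Paralog 6 spanned 7.62, from Hoxc6 at -7.72 to Hoxa6 at -0.10, and paralog 11 spanned 6.41, from Hoxa11 at -6.56 to Hoxd11 at -0.15. In paralog 13 only Hoxd13 passed the 2-fold test, and Hoxa13, Hoxb13 and Hoxc13 lay between -1.67 and -0.76. The closest sets were paralog 12 (Hoxc12 and Hoxd12, 0.66 apart) and paralog 7 (Hoxa7 and Hoxb7, 0.82 apart).

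Neighbours within a cluster differed about as much. Of 33 pairs of measured genes adjacent in paralog number, 21 differed by more than 2 on the log2 scale. These 21 were chosen by the mean of the same 2 arrays, so their equal direction of step on both arrays is no separate evidence. The median step was 3.13 in absolute size. Of the 15 pairs in which both genes had a single probe, 12 differed by more than 2, so the steps were not limited to genes whose probes had been averaged. This does not separate genes from probes, because a single probe cannot show how another probe of its gene would read. In the 11 Hox genes with more than 1 probe, the median range between probe means was 1.74, and that of Hoxb3 was 6.05. The largest were between Hoxc9 and Hoxc10 (5.84), Hoxc5 and Hoxc6 (-5.68, the second minus the first) and Hoxb9 and Hoxb13 (5.58).

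Genes just outside the clusters were not low as a group. Of the 40 measured protein-coding genes nearest to the clusters, 5 on each side, 13 were lower in heart, 16 higher and 11 not called, with a median of 0.01, and over all genes 39.3% were lower and 33.8% higher. By gene mean only Agps, at -1.16 ± 0.07, was at least 2-fold lower on both arrays, and 0 were 16-fold lower. The Skap2 mean combines probes with means of -1.39, -1.13 and 0.0013. Its low probes were each over 2-fold lower on both arrays, and the other lay inside the spike described below on both. The genes nearest to the low-numbered ends were Skap2 at cluster A (-0.84 ± 0.03), Skap1, an adaptor of T cell adhesion, at B (3.59 ± 0.12), the DNA repair enzyme Smug1 at C (0.56 ± 0.09) and the mitochondrial import gene Mtx2 at D (1.87 ± 0.02). At the high-numbered ends lay the homeobox gene Evx1 at A, with -0.63 and 0.63 on arrays 1 and 2 and no call, and its relative Evx2 at D (1.13 ± 0.0018), which was higher in heart. Ttll6 at B (-0.34 ± 0.25, not called) and Calcoco1 at C (0.73 ± 0.07) completed the edges. Beside Skap1, the largest differences were those of Atp5g3, a subunit of the mitochondrial ATP synthase (4.30 ± 0.04), and Nfe2, a red cell and platelet transcription factor (3.80 ± 0.05).

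**Figure D2:**
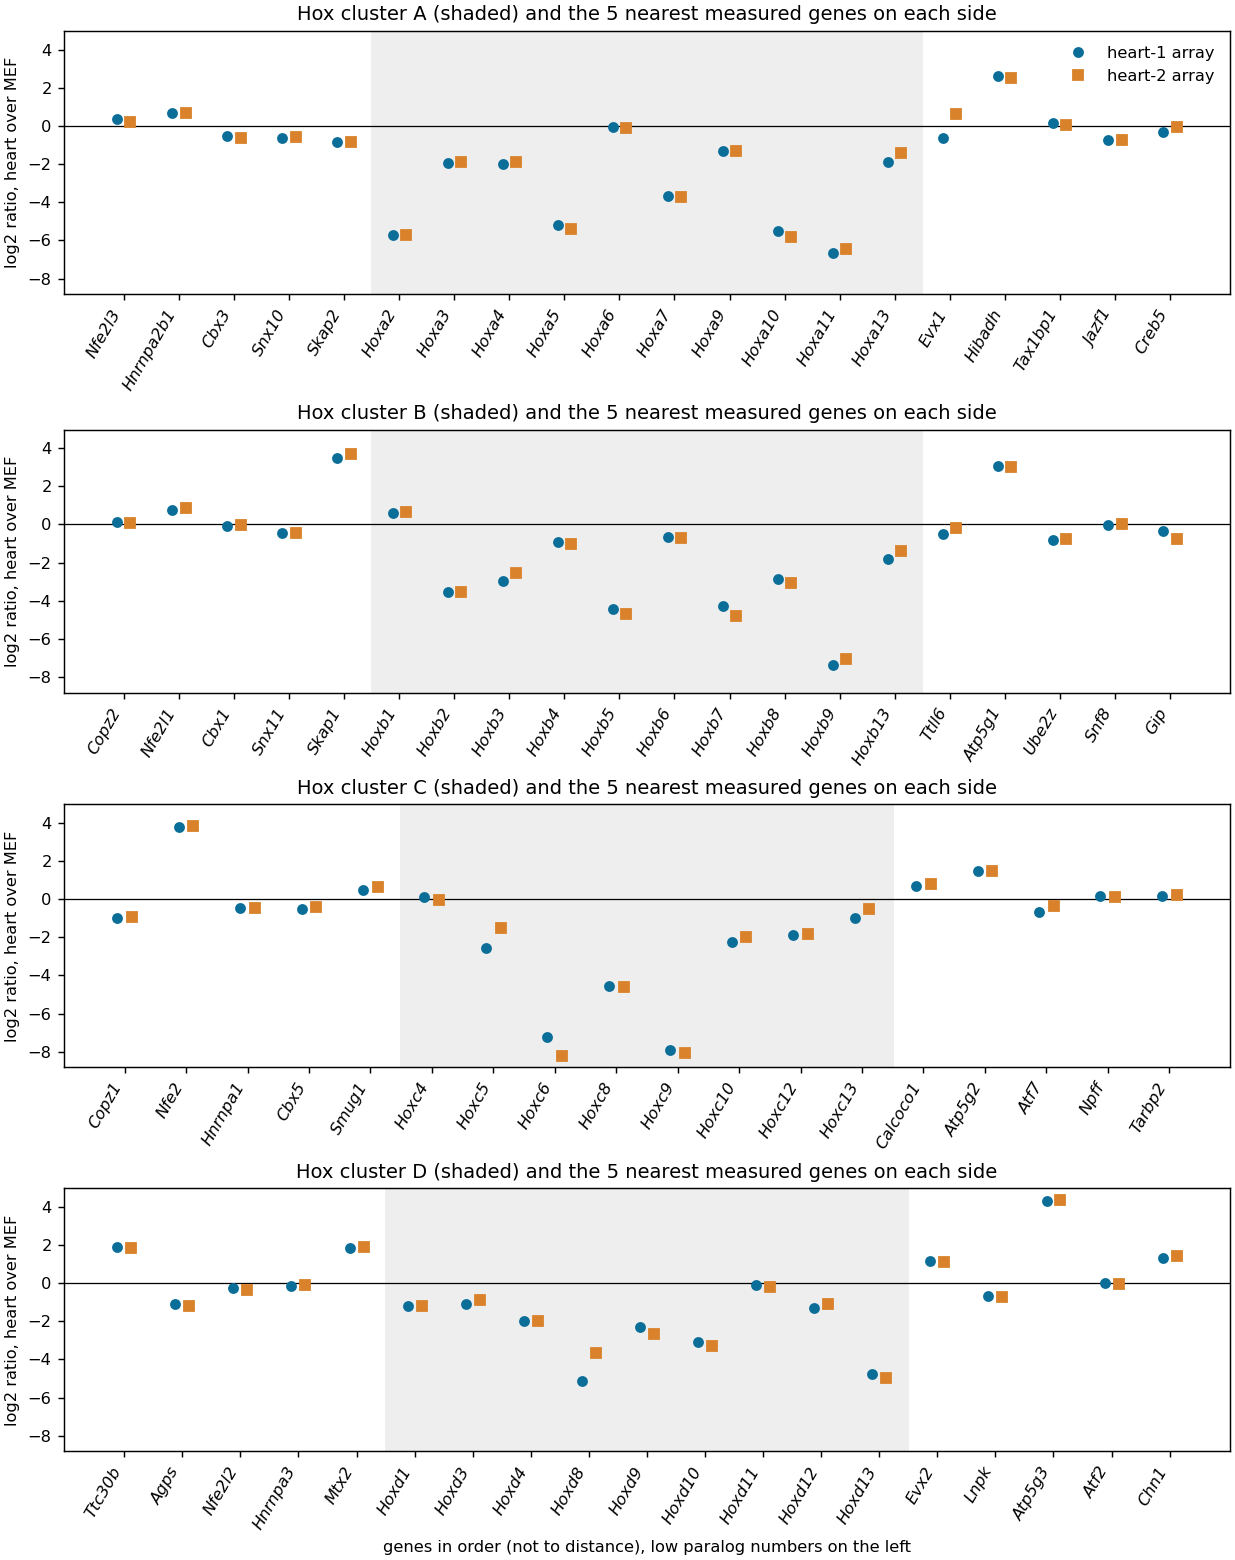
Log2 ratio of heart over MEF on each of the 2 arrays for the genes of each Hox cluster (shaded, by paralog number) and the 5 nearest measured protein-coding genes on each side, in gene order and not to distance. Inside the shading most points lie below 0, down to -8.20 for Hoxc6 on array 2, while the lowest gene mean (average of probes) outside it is that of Agps at -1.16.

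The arrays gave similar Hox ratios. Pearson's r between arrays was 0.985 across the 37 genes and 0.982 across all genes, which are not independent replicates and share the MEF channel. The median absolute difference between arrays was 0.18 for Hox genes and 0.09 for all genes, and 8.11% of Hox genes and 8.20% of all genes differed by more than 0.5. The 3 Hox genes were Hoxd8 (-5.11 on array 1, -3.67 on array 2), Hoxc5 (-2.55 and -1.52) and Hoxc6 (-7.23 and -8.20). Hoxd8 and Hoxc6 stayed past a 2-fold change by treat, while Hoxc5 did not (treat adjusted p = 0.138).

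Probes of one gene did not always give one answer, and 11 of the 37 Hox genes had more than 1. Of the 49 probes, 45 were below 0 on both arrays, 3 above 0 on both and 1 of mixed sign. In 4 of the 11 genes the probe means lay within 1 of each other, among them Hoxb9 (-7.25 and -7.12), Hoxd13 (-4.93 and -4.83) and Hoxa13 (-1.70 and -1.64). In the other 7 they were further apart. One Hoxb3 probe was at -6.04 and -5.50 on arrays 1 and 2 and the other at 0.09 and 0.46. One Hoxb6 probe, designed on the RefSeq transcript, was at -2.68 and -2.83 and the other, designed on an older GenBank sequence, at 1.34 and 1.39. The 2 Hoxb8 probes had means of -5.00 and -0.94, and those of Hoxc10 -3.75 and -0.54. The ratios of these genes therefore depended on the probe, and the errors given above do not include that spread.

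**Figure D3:**
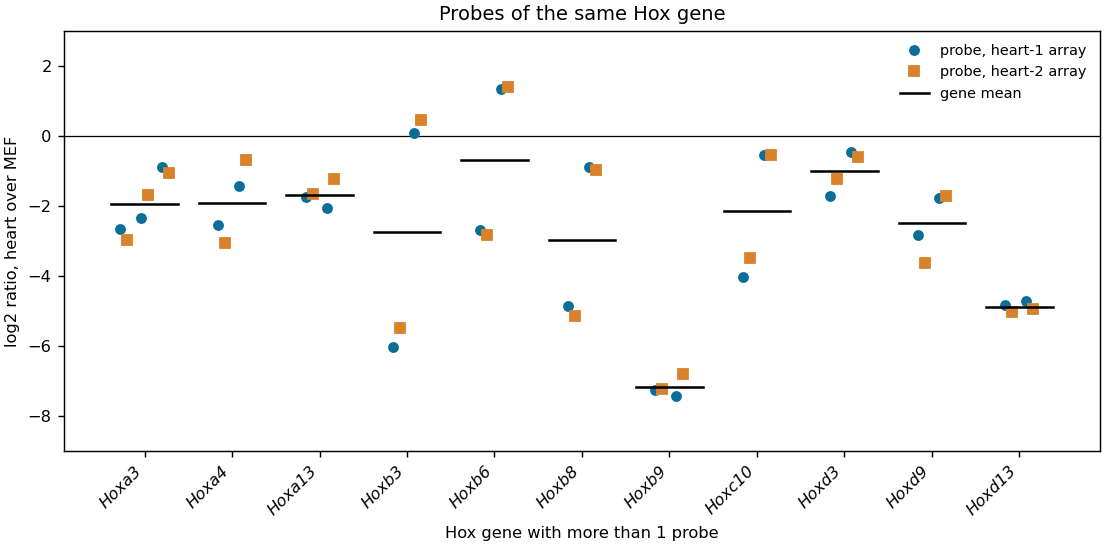
Log2 ratio of heart over MEF for each probe of the 11 Hox genes with more than 1 probe, on array 1 (circles) and array 2 (squares), with a bar at the gene mean. Probes of Hoxb9, Hoxd13 and Hoxa13 lie together, while those of Hoxb3 and Hoxb6 fall on opposite sides of 0.

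Both arrays held a narrow spike of near-constant ratios, between 0.12 and 0.20 on array 1 and between -0.20 and -0.12 on array 2, and 3092 of the 41174 probes lay in it on both. Of the Hox probes 0 lay in it on both, while that of Hoxc4 did on array 1 and that of Hoxd11 on array 2, and neither gene was called. Single-channel brightness was not part of the values analysed, so how far a Hox probe stood above background in either channel could not be judged.

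Non-coding transcripts of the clusters were measured for 3 of 14 genes listed. Hoxaas3, antisense to the middle of cluster A, was lower in heart, at -4.45 and -4.67 on arrays 1 and 2. Hoxd3os1 was lower at -1.26 ± 0.29, beside Hoxd3 at -0.998 ± 0.13. Hottip, a transcript from the high-numbered end of cluster A, had 0.15 and -0.16, values inside the spike, and was not called. Whether an antisense pair of probes also detects the opposite strand was not tested.

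Proteins of the TALE homeodomain class bind DNA together with Hox proteins, and 6 of 8 measured were lower in heart, 1 higher and 1 not called (median -1.40), beside 39.3% lower and 33.8% higher of all genes. The lowest were Meis3 at -2.41 ± 0.12, Pbx4 at -2.14 ± 0.02, Pbx3 at -1.88 ± 0.10 and Pbx2 at -1.65 ± 0.05. Pknox2 was higher at 0.39 ± 0.06, and Meis1 at -0.13 ± 0.02 was not called. The Meis1 mean combines probes with means of -0.63 and 0.36. In this and the following lists, the SDs do not include differences between probes. The minimum was -2.41 among the 8 TALE genes and -7.99 among the 37 Hox genes, lists of unlike size, and the medians were -1.40 and -2.15.

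Polycomb proteins keep Hox genes silent outside their domain, and of 21 measured genes 13 were lower in heart, 7 higher and 1 not called (median -0.57). The share higher was near that of all genes (33.8%), and 39.3% of all genes were lower. Cbx7, a chromodomain subunit of Polycomb repressive complex 1, stood apart at 4.43 and 4.45 on arrays 1 and 2, 21.7-fold higher in heart. Another chromodomain subunit, Cbx6, was lower at -2.41 ± 0.02, and so were Pcgf2 at -3.02 ± 0.24 and the methyltransferase Ezh2 at -2.28 ± 0.06. Ezh1, the relative of Ezh2 that prevails in non-dividing cells, was higher at 0.96 ± 0.02, and the accessory factor Phf1 at 0.85 ± 0.01. Eed at 0.03 ± 0.20 was not called.

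Among Trithorax activators, which keep Hox genes on, and demethylases that remove the Polycomb mark, 6 of 11 were lower, 2 higher and 3 not called (median -0.29), and the share called was near the 73.1% of all genes. Men1, a partner of the methyltransferase Kmt2a, was at -2.27 ± 0.0014, the demethylase Kdm6b at -1.96 ± 0.01 and Psip1 at -1.12 ± 0.0008. Dpy30 (1.06 ± 0.0028) and Dot1l (0.61 ± 0.04) were higher. Kmt2a itself, at -0.11 ± 0.04, Kdm6a (0.11 ± 0.11) and Rbbp5 (0.14 ± 0.14) were not called.

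The Caudal genes, which activate posterior Hox genes in the embryo, and the Evx and ParaHox genes were measured too. Of 8 genes 1 was lower, 2 higher and 5 not called (median 0.09), beside 39.3% lower and 33.8% higher of all genes. Cdx2 was lower, at -1.42 and -2.11 on arrays 1 and 2 (limma adjusted p = 0.0187), and Evx2 and Gsx1 (0.45 ± 0.09) were higher. Cdx1 (0.72 ± 0.73), Cdx4 (0.03 ± 0.25), Evx1, Gsx2 (0.00 ± 0.20) and Pdx1 (0.15 ± 0.14) were not called. Gsx2 lay inside the spike on both arrays.

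Other transcription factors tied to body position had a median near that of the Hox list, -2.37, with 9 of 14 lower, 3 higher and 2 not called, beside 39.3% lower and 33.8% higher of all genes. Pitx1, which specifies the hindlimb, was at -4.10 and -5.80 on arrays 1 and 2, Shox2 at -4.66 ± 0.48, Barx1 at -4.63 ± 0.15 and Pax9 at -3.39 ± 0.02. Higher in heart were Hand2 (3.11 ± 0.03) and Tbx5 (1.31 ± 0.08), which act in both heart and limb, and Lmx1b (0.43 ± 0.01). En1 (0.00 ± 0.22) and Otx2 (0.06 ± 0.16) were not called, and En1 lay inside the spike on both arrays.

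**Figure D4:**
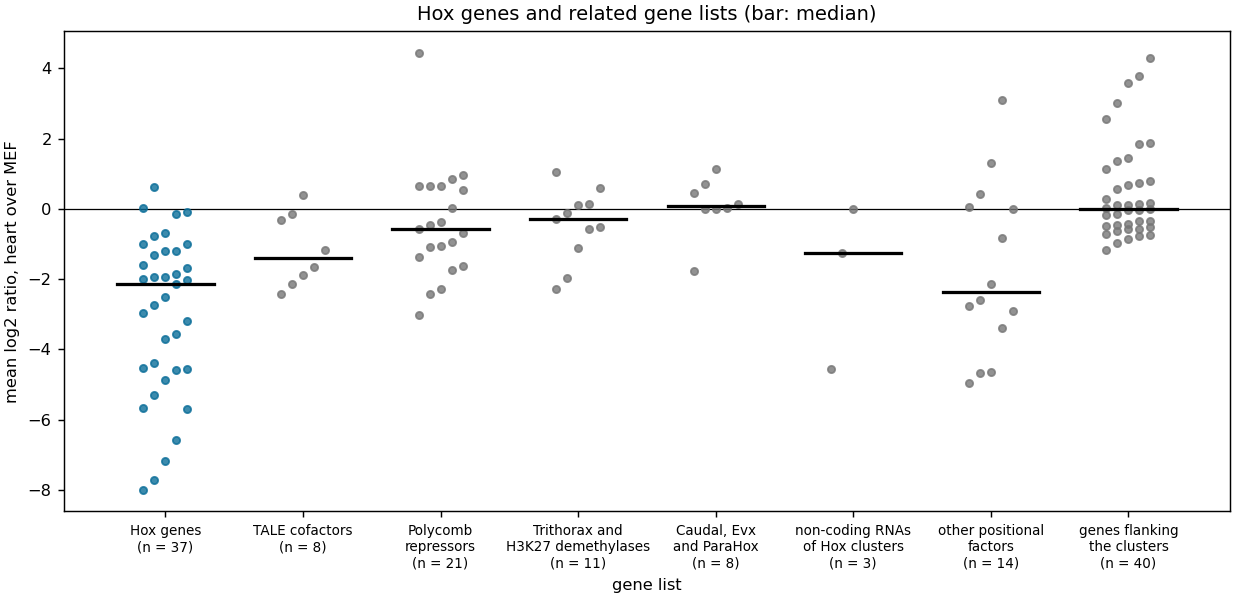
Mean log2 ratio of heart over MEF (n = 2 arrays) of each gene in the Hox list, in the lists of cofactors and regulators and among the genes flanking the clusters, with a bar at the median of each list. The Hox genes reach -7.99, the flanking genes have a median of 0.01, and Cbx7 at 4.44 is the highest point of the Polycomb list.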

How the data were processed

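RNA of 2 mouse hearts was compared with MEF RNA on 2 two-colour Agilent arrays. The table deposited by the authors has a value for each of 41174 probes on either array, taken as the log2 ratio of the channels from its size; the log base, centring and direction are not stated. The submitters' processing notes name Agilent Feature Extraction, without its version, background correction or normalization. The column medians were 0.07 (heart-1) and -0.14 (heart-2). Having only 2 arrays limits the precision.

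Probes were named from the platform annotation: 32664 had 1 symbol, 45 several and 8465 none. Values of probes with one symbol were averaged within each array, which left 19532 genes, and all 37 Hox genes matched RefSeq by gene identifier. Departure from a ratio of 0 was tested over the whole gene table by an intercept-only moderated fit (limma 3.58.1, R 4.3.3, lmFit and eBayes, 1 residual degree of freedom, prior SD 0.0655 with 1.25 prior degrees of freedom). Tables were joined in Python 3.11.15. The spike was the run of bins of width 0.02 around the fullest bin that held over 3 times the median bin count. The fit was checked on simulated data. Members, lists and rules were chosen with earlier results of these data known. The text names all Hox genes, up to 4 members of each other list with the largest absolute mean, up to 3 against its majority and those without a call, and the nearest flanking genes with the 3 of largest absolute mean. For the lists that check the labelled tissues only a few are named, and Agps was named after its value was seen. Alternatives were centring, quantile normalization, other probe summaries, no spike probes, single arrays and other variance settings.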

Additional observations from a re-analysis of the deposited data

How the results depend on the processing

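Under centring, quantile normalization, both other probe summaries, removal of the spike probes and robust eBayes, each of the 37 Hox genes kept its direction and its side of the threshold. With centring the limma adjusted p of Hoxa2 was 2.36e-189, against 0.00136 in the main fit. Such a size cannot rest on 2 arrays, so the calls of the centred fit carry little weight. With each gene's own variance only (1 degree of freedom), 16 Hox genes were called, 15 of them lower, in place of 34 and 33. The gene means were the same in both fits, and only the variance estimate and its degrees of freedom differed. Among the 18 lost calls were Hoxc6 (adjusted p = 0.0787), Hoxd8 (0.15) and Hoxb5 (0.0541). Treat against a 2-fold change called 0 higher and lost 9 calls in all. Taking the probe with the largest absolute mean, which by construction lowers these medians, gave -3.20 over all Hox genes, -3.26 in cluster A, -4.04 in B and -2.89 in C. It gave -2.81 for paralogs 1 to 3, -3.71 for 4 to 8 and -3.20 for 9 to 13, and the number of adjacent pairs over 2 apart was again 21. Centring moved the median to -2.79 in cluster A and -1.95 in D, and the median of probes to -2.86 in A and -2.02 for paralogs 1 to 3. Hoxc4 was at 0.12 on array 1 alone and turned to -0.0593 on array 2 alone. No paired analysis was possible because the arrays form a single group of direct ratios. Small Hox ratios such as that of Hoxb1 rest on where zero lies, and no intensity was used to judge signal over background.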

Other observations

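Some genes that flank the Hox clusters belong to families with a member beside more than 1 cluster, and were looked up after their values were seen. The ATP synthase subunit genes Atp5g1 (beside cluster B), Atp5g2 (C) and Atp5g3 (D) were all higher in heart, at 3.03 ± 0.02, 1.46 ± 0.01 and 4.30 ± 0.04. The heterochromatin protein genes Cbx3 (A), Cbx1 (B) and Cbx5 (C) had ratios of -0.58 ± 0.06, -0.04 ± 0.02 and -0.47 ± 0.05, of which Cbx1 was not called. The bZIP genes Nfe2l3 (A), Nfe2l1 (B), Nfe2 (C) and Nfe2l2 (D) stood at 0.30 ± 0.10, 0.81 ± 0.05, 3.80 ± 0.05 and -0.33 ± 0.07. The RNA-binding protein genes Hnrnpa2b1 (A), Hnrnpa1 (C) and Hnrnpa3 (D) stood at 0.67 ± 0.01, -0.45 ± 0.01 and -0.13 ± 0.03, the last without a call. These SDs do not include differences between probes. The Hnrnpa3 mean combines probes with means of -1.49, -0.81, 0.07 and 1.69. Probes of opposite sign were also averaged for other genes here, among them Cbx3, Cbx1 and Nfe2l2.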
